A study of Oryza sativa with 7 samples.

Results

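The regulators described here are 8 rice loci known for controlling storage protein and starch genes in the grain: RPBF (Os02g0252400), RISBZ1 (also called bZIP58, Os07g0182000), NF-YB1 (Os02g0725900), NAC20 (Os01g0104500), NAC26 (Os01g0393100), FLO2 (Os04g0645100), RSR1 (Os05g0121600) and LFL1 (Os01g0713600). They were picked by locus ID for these known roles, with earlier results of these data already known, and all 8 were present among the 37858 loci of the tables, with 55 of 178317 exon bins. An exon bin is a piece of an annotated exon that has a read count of its own. The RNA came from 4 tissues of the cultivar Ilmi. Seed was taken at 20 to 30 days after pollination, with 21 in the sample names, and young panicle consisted of unpollinated flowers of panicles 0.5 to 1.5 cm long. Leaf and root were both taken at 14 days. Seed, panicle and leaf had 2 libraries each and root had 1, with no treatment or mutation in any group.

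In the rice grain, starch and storage proteins are laid down in the endosperm, and the outermost endosperm layer, the aleurone, passes sugars inward. RPBF, a DOF zinc-finger protein that binds the prolamin box, and RISBZ1, a bZIP protein that binds the GCN4 motif, are known to activate storage protein promoters together. NAC20 and NAC26 are NAC-domain factors with overlapping roles as activators of starch and storage protein genes. NF-YB1 is a nuclear factor Y subunit of the aleurone that is known to act on sucrose transporter genes. FLO2 is a tetratricopeptide-repeat protein, not a DNA-binding factor, and its loss gives floury grains. RSR1, an AP2-family factor, is known as a negative regulator of starch synthesis genes. LFL1 is a B3-domain factor related to the seed regulators LEC2 and FUSCA3 of Arabidopsis, and is also known to repress flowering.

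Counts over exon bins came to between 11989260 and 49312943 per library. Levels are given as CPM, the usual counts-per-million unit, taken from counts summed over the bins of a locus and library sizes scaled by TMM. No bin lengths were used, so levels are compared between tissues within a locus and not between loci. Whether the libraries of a tissue were made from different plants is not stated in the labels, and the p-values therefore reflect a spread between libraries that may be technical. The tissue was whole seed, and in bulk RNA fewer cells of a type and less RNA per cell cannot be told apart. Lists of marker loci summed to 62326 and 120807 CPM in seed for seed markers (3 loci), against 1.04 to 1.51 CPM in the other libraries. Leaf markers (4 loci) summed to 51970 to 57676 CPM in leaf and 31.0 to 511 CPM elsewhere, and root markers (3 loci) to 552 CPM in root and at most 16.0 CPM elsewhere. Floral markers (7 loci) did not separate seed from panicle, with 1434 and 700 CPM in seed, 649 to 1132 CPM in panicle and 11.6 to 13.6 CPM in leaf and root.

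Most of the regulators were higher in seed than in every other tissue. RPBF, NF-YB1 and NAC26 had at most 1 count outside seed, and RSR1 was the member lowest in seed relative to leaf and root. Calls rest on edgeR's quasi-likelihood test over all 26784 loci tested, with an adjusted p (Benjamini-Hochberg) under 0.05 and at least a 2-fold difference. Against panicle, 7 of the 8 members were called higher in seed and none lower, where 17.1% of all loci tested were called higher and 10.1% lower. Against leaf, 6 members were called higher in seed and 1 lower, where the shares of all loci were 11.2% higher and 18.1% lower. Against root, 7 members were higher in seed and 1 lower, with 9.50% of all loci higher and 10.7% lower. RPBF, RISBZ1, NF-YB1, NAC20, NAC26 and LFL1 were called higher in seed than in each of the other 3 tissues, as were 2.99% of all loci tested. Because the members were not picked blind to these data, their counts beside the shares of all loci are a description. RSR1 and FLO2 were not called highest in seed, since RSR1 was lower in seed than in leaf and root, and FLO2 was not called between seed and leaf. All 8 passed the filter on low counts, but RPBF, NF-YB1 and NAC26 passed through the seed libraries alone, so a difference from seed was bound to appear for them and their calls are a description.

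**Figure D1:**
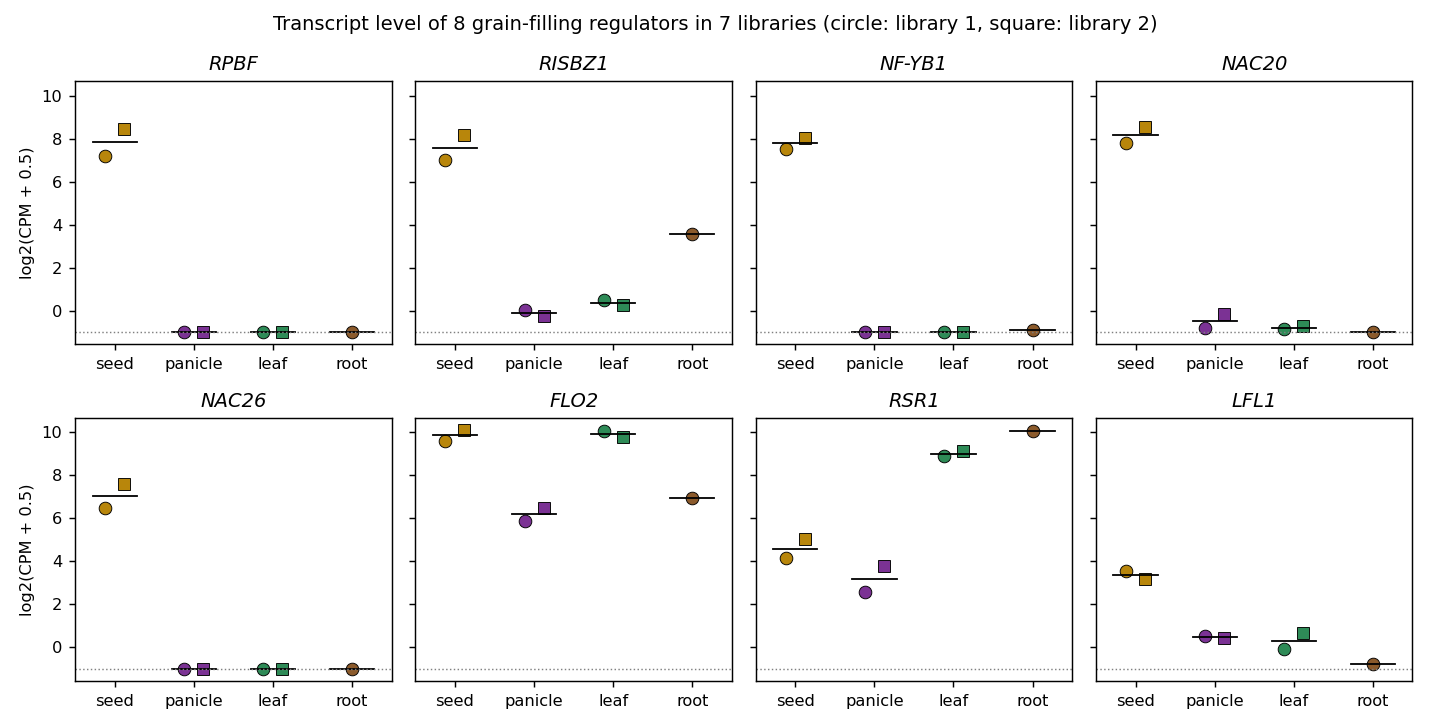
Level of each of the 8 members as log2(CPM + 0.5) in seed, panicle, leaf and root, with 1 point per library, a line at the tissue mean and a dotted line where a count of 0 falls. RPBF, NF-YB1, NAC20 and NAC26 lie at or near the dotted line outside seed, FLO2 is high in both seed and leaf, and RSR1 is highest in root.

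RPBF transcripts were counted in seed and in no other tissue. The locus had 148 and 347 CPM in the 2 seed libraries, from 2412 and 3288 counts, and not a single count in panicle, leaf or root. A count of 0 allows up to 0.0566 CPM in panicle, 0.0535 CPM in leaf and 0.139 CPM in root, taking 3 counts over the libraries of the tissue. RPBF was thus at least 4372-fold higher in seed than in panicle, at least 4620-fold higher than in leaf and at least 1782-fold higher than in root. Those bounds were 2611-fold, 2759-fold and 1064-fold without seed 2, 1912-fold without panicle 1, 2460-fold without panicle 2 and 1446-fold without leaf 2. The edgeR adjusted p was 0.00179 against panicle, 0.00151 against leaf and 0.00541 against root. RPBF passed the filter on low counts through the seed libraries alone, so these p-values are a description.

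RISBZ1, the partner of RPBF on storage protein promoters, was also highest in seed but was present in every tissue. It had 126 and 290 CPM in seed, 0.536 and 0.345 CPM in panicle, 0.912 and 0.701 CPM in leaf and 11.3 CPM in root. The order was seed, root, leaf, panicle, with no overlap between libraries of any 2 tissues. Leaf over panicle rests on only 16 and 27 counts in leaf against 16 and 8 in panicle, and root had 1 library. The share of all loci without such overlap was not computed. Seed exceeded panicle by 8.85 on the log2 scale (edgeR, SE 0.63, adjusted p = 0.000896) and leaf by 8.02 (edgeR, SE 0.60, adjusted p = 0.000927). The seed excess over root was smaller, at 4.20 (edgeR, SE 0.67, adjusted p = 0.00822). Without seed 2 the values were 8.13 against panicle, 7.32 against leaf and 3.49 against root, all still called. Below seed, RISBZ1 in panicle fell by 4.64 relative to root (edgeR, SE 0.58, adjusted p = 0.0027) and in leaf it fell by 3.82 (edgeR, SE 0.56, adjusted p = 0.00533), although the call in leaf was lost without leaf 2 (adjusted p = 0.0625). Panicle and leaf did not pass against each other, at -0.82 (edgeR, SE 0.55, adjusted p = 0.29). RISBZ1 was the only one of the 5 activators RPBF, RISBZ1, NF-YB1, NAC20 and NAC26 with more than 1 count in the root library, where it had 244 counts spread over all 6 of its bins.

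The pair of NAC factors was counted almost wholly in seed. NAC20 had 221 and 367 CPM in seed, from 3616 and 3480 counts. Outside seed it had 2 and 9 counts in panicle (0.0670 and 0.388 CPM), 1 and 4 counts in leaf (0.0570 and 0.104 CPM) and none in root. Both seed libraries stood far above the rest, and no call was made between panicle, leaf and root, although panicle over root was called without panicle 1 (edgeR, adjusted p = 0.0474). Seed stood 10.38 above panicle on the log2 scale (edgeR, SE 0.78, adjusted p = 0.000963) and 11.62 above leaf (edgeR, SE 0.84, adjusted p = 0.000927), and was at least 2120-fold higher than root. The bound against root was 1595-fold without seed 2. The value against panicle was 9.56 without panicle 1 and 12.01 without panicle 2, which held 9 of the 11 panicle counts. NAC26 had 89.9 and 191 CPM in seed, from 1467 and 1806 counts, and no count in panicle, leaf or root. It was at least 2478-fold higher in seed than in panicle, at least 2619-fold higher than in leaf and at least 1010-fold higher than in root (edgeR, adjusted p = 0.00172, 0.00145 and 0.0051). NAC26 passed the filter on low counts through the seed libraries alone, so these p-values are a description. Its lowest bounds with a library left out were 1084-fold without panicle 1, 820-fold without leaf 2 and 647-fold without seed 2, and against panicle it was 1395-fold without panicle 2. Against panicle and leaf the NAC26 bounds without seed 2 were 1588-fold and 1678-fold. The call against root was not made by DESeq2 (adjusted p = 0.0571).

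NF-YB1, the aleurone subunit, had 185 and 260 CPM in seed, from 3019 and 2466 counts. Panicle and leaf had no count, and root had 1 count (0.0463 CPM). Seed was at least 3934-fold higher than panicle and at least 4157-fold higher than leaf (edgeR, adjusted p = 0.00106 and 0.000941). Against the single root count the ratio was 4593, and its 95% counting interval ran from 824 to 181447 (edgeR, adjusted p = 0.0029). NF-YB1 passed the filter on low counts through the seed libraries alone, so these p-values are a description. Without panicle 1, panicle 2 and leaf 2 the bounds were 1720-fold, 2214-fold and 1301-fold. Without seed 2 they were 3268-fold against panicle and 3454-fold against leaf. How reads that span bins of a locus were counted is not stated, and the intervals and bounds treat each count as a separate read.

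**Figure D2:**
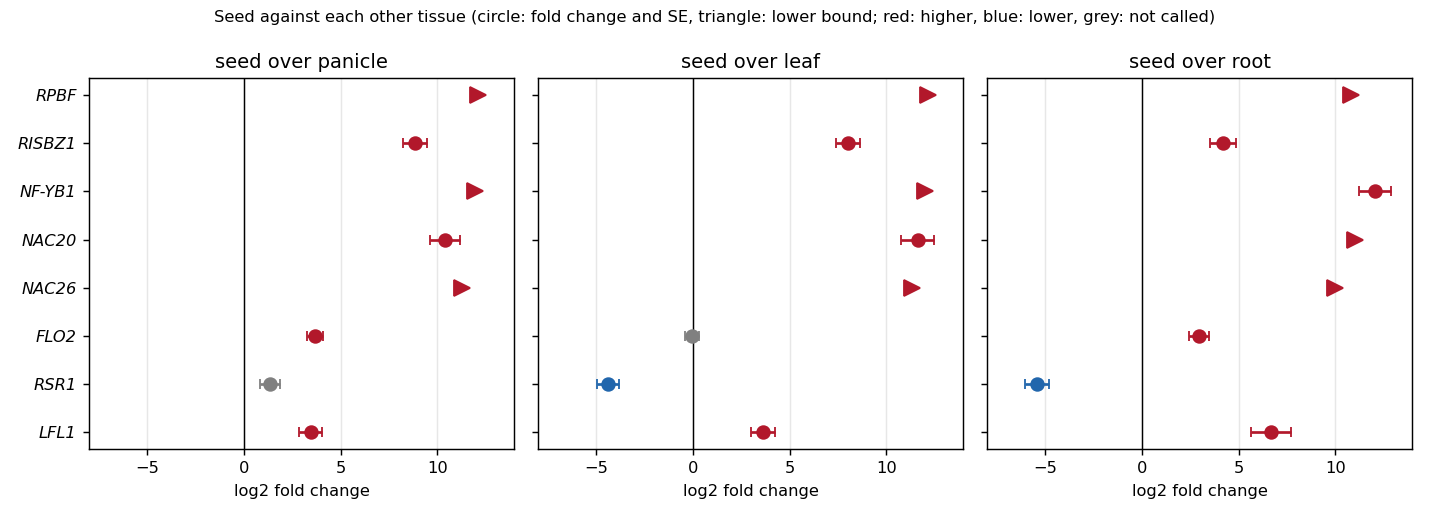
Log2 fold change of seed over panicle, leaf and root for each member, with the standard error as bars (circles), or the lower bound where the other tissue had no count (triangles). Red marks loci called higher in seed, blue lower and grey not called: RSR1 is at -4.40 against leaf and -5.44 against root, and FLO2 is near 0 against leaf.

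FLO2 was abundant in seed and leaf and low in panicle and root. It had 784 and 1116 CPM in seed, 58.4 and 89.8 CPM in panicle, 1086 and 892 CPM in leaf and 123 CPM in root. The leaf libraries lie within the range of the seed libraries, and the difference of seed minus leaf was -0.06 on the log2 scale (edgeR, SE 0.37, adjusted p = 0.931). That result does not show equal levels; with 1 library left out or another scaling or count summary the value ran from -0.33 to 0.18, on both sides of 0. Seed exceeded panicle by 3.68 (edgeR, SE 0.41, adjusted p = 0.00199) and root by 2.94 (edgeR, SE 0.53, adjusted p = 0.0118). Relative to leaf, FLO2 fell by 3.74 in panicle (edgeR, SE 0.41, adjusted p = 0.00116). Leaf exceeded root 8.01-fold (edgeR, adjusted p = 0.0103), a call lost without leaf 1 (adjusted p = 0.0544). Panicle and root did not pass, at -0.74 (edgeR, SE 0.44, adjusted p = 0.241). The seed call against root was lost with only the seed and root libraries in the fit (adjusted p = 0.0824). Seed held 44.5% of the sum of the 4 tissue means of FLO2 and leaf 46.3%, where the median locus tested had 20.9% in seed.

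RSR1, the negative regulator, ran the other way. It had 17.1 and 32.1 CPM in seed, 5.46 and 13.5 CPM in panicle, 477 and 555 CPM in leaf and 1061 CPM in root. Every leaf and root library lay above every seed and panicle library. Relative to leaf, RSR1 in seed fell by 4.40 on the log2 scale (edgeR, SE 0.58, adjusted p = 0.00287), and relative to root it fell by 5.44 (edgeR, SE 0.64, adjusted p = 0.00366). Panicle was lower still, and fell by 5.77 relative to leaf (edgeR, SE 0.61, adjusted p = 0.00105); relative to root it fell by 6.81 (edgeR, SE 0.67, adjusted p = 0.00131). These panicle values were -5.11 and -6.18 without panicle 1, and -6.44 and -7.50 without panicle 2. Of all loci tested, 21.3% were called lower in panicle than in leaf and 18.0% lower in panicle than in root. The seed libraries lay above the panicle libraries by 1.37 (edgeR, SE 0.52, adjusted p = 0.0914), which did not pass. It passed with DESeq2 (adjusted p = 0.0379) and without seed 1, but 11 of 14 alternative fits made no call. The value ran from 0.86 to 2.19 over these fits, and was 2.19 without panicle 2. Leaf and root, the neighbours at the top, did not pass either, at -1.04 (edgeR, SE 0.59, adjusted p = 0.292), with a single root library. That difference was called with only the leaf and root libraries in the fit (adjusted p = 0.0316).

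LFL1, the B3 factor, was the member with the fewest counts in seed. It had 11.2 and 8.65 CPM in seed (183 and 82 counts), 0.938 and 0.863 CPM in panicle, 0.456 and 1.09 CPM in leaf and 2 counts in root (0.0926 CPM). Both seed libraries lay above all others, while panicle and leaf overlapped. Seed exceeded panicle by 3.46 on the log2 scale (edgeR, SE 0.60, adjusted p = 0.00816) and leaf by 3.64 (edgeR, SE 0.61, adjusted p = 0.00665). The call against leaf was lost without leaf 1 (adjusted p = 0.0506), and the value was 4.42 without leaf 2. Against the 2 root counts the ratio of seed was 111, and its 95% counting interval ran from 30.4 to 921 (edgeR, adjusted p = 0.00764). Panicle also passed against root (edgeR, adjusted p = 0.0464), with a ratio of 9.78 whose counting interval ran from 2.56 to 83.1, where 10.2% of all loci were called higher in panicle. That call was lost in 7 of 13 alternative fits, among them each fit without 1 of the panicle or leaf libraries. It was also lost with only the panicle and root libraries and with the largest bin count of the locus. Leaf against root did not pass (edgeR, adjusted p = 0.0741), and panicle against leaf did not (edgeR, 0.18, SE 0.57, adjusted p = 0.98).

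Outside seed, between 2 and 3 members were called per pair of tissues. Panicle against leaf gave 2 calls, FLO2 and RSR1, both lower in panicle, where 8.75% of all loci were called higher and 21.3% lower. Panicle against root gave 3 calls, with RISBZ1 and RSR1 lower and LFL1 higher in panicle, where 18.0% of all loci were called lower and 10.2% higher. Leaf against root gave 2 calls, with FLO2 higher and RISBZ1 lower in leaf, where 10.8% and 7.23% of all loci were called higher and lower. Counts this small out of 8 members are not set apart from those shares. RPBF and NAC26 had no count in any of these tissues, so no fold can be given for them.

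The exon bins of a member mostly shared its direction. All bins of RPBF, RISBZ1, NF-YB1, NAC20, NAC26 and LFL1 had seed libraries above every library of panicle, leaf and root, which is 2, 6, 2, 3, 4 and 6 bins in that order of loci. Of the 145997 bins with a count in any library, 11.7% were placed that way. All 24 bins of FLO2 had seed libraries above panicle and root, as did 18.1% of all bins. Against leaf, 21 of the 24 FLO2 bins overlapped (42.1% of all bins), with bins 4 and 5 lower and bin 19 higher in seed. In bin 4 the seed libraries had 3.61 and 14.2 CPM and the leaf libraries 22.6 and 15.0 CPM. All 8 bins of RSR1 lay lower in seed than in leaf and root (17.8% of all bins), and all 8 lay lower in leaf than in root (38.4% of all bins). Bins of 1 locus come from the same transcripts and libraries, so they are not replicates of each other.

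**Figure D3:**
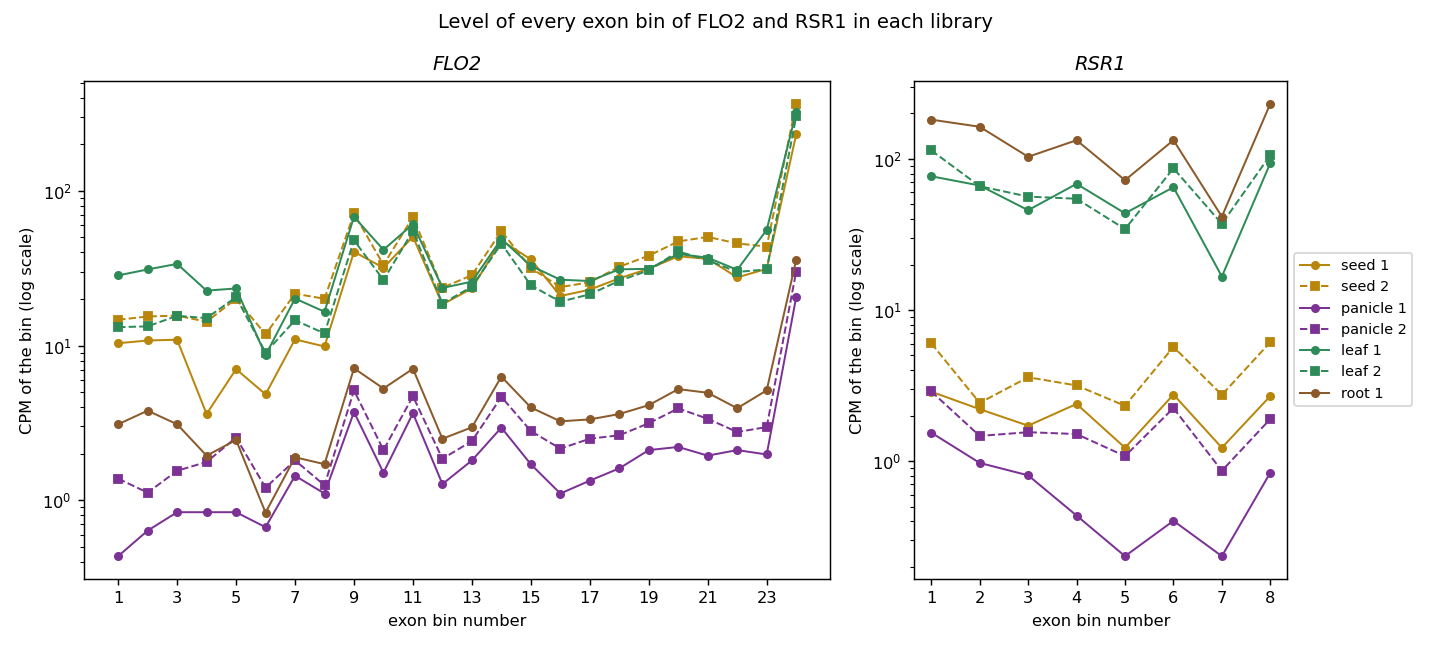
CPM of each exon bin (log scale) along FLO2 (24 bins) and RSR1 (8 bins), with 1 line per library coloured by tissue. The FLO2 lines of seed and leaf lie above root and panicle, with 231.7 and 365 CPM in seed at bin 24. They run close over most bins, but leaf 1 lies above both seed libraries over bins 1 to 5 and at bins 10, 16, 17 and 23. At bin 3 leaf 1 had 33.7 CPM, against 10.9 and 15.6 CPM in seed. The RSR1 lines of root lie above leaf, seed and panicle.

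No member was called for exon usage, which compares the change of a bin with that of its locus. All 55 bins of the 8 loci were tested in 6 tissue pairs with edgeR's diffSpliceDGE. Of the 330 bin tests, 55 had no count of the locus in 1 or both tissues and could not have been called, and 198 had 200 or more counts of the locus in both. None was called, the smallest adjusted p was 1, and 1 had an unadjusted p under 0.05, for bin 2 of FLO2 between panicle and root (edgeR, unadjusted p = 0.0378, adjusted p = 1). Voom with diffSplice also called none. Over all loci tested for usage the share called was 0.113% for seed over panicle, 0.157% for seed over leaf, 0.0432% for seed over root, 0.227% for panicle over leaf, 0.124% for panicle over root and 0.0756% for leaf over root. Shares this low leave no call to be found among most sets of 8 loci, so the absence of a call is not particular to the members. The last bin of FLO2, bin 24, held 31.2% ± 2.24 of the locus's counts in seed, 34.3% ± 1.22 in panicle and 31.8% ± 2.98 in leaf (SD, n = 2 each), and 29.0% in root with a 95% Wilson interval of 27.3% to 30.8% for counting error. In RSR1 the share of bin 1 was 17.8% ± 1.35 in seed, 24.8% ± 4.82 in panicle and 18.3% ± 3.13 in leaf (SD, n = 2 each), and 17.2% in root, and the difference of seed and panicle did not pass (edgeR, unadjusted p = 0.633, adjusted p = 1). Bin 2 of RISBZ1 held 16.2% ± 2.06 in seed (SD, n = 2) and 19.7% in root (edgeR, unadjusted p = 0.647, adjusted p = 1). For RPBF, NF-YB1, NAC20 and NAC26 the tissues other than seed had too few counts for a share.

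The seed libraries differed from each other, and 7 of the 8 members were higher in seed 2 than in seed 1. On the log2(CPM + 0.5) scale, seed 2 minus seed 1 was 1.23 for RPBF, 1.19 for RISBZ1, 1.08 for NAC26, 0.89 for RSR1, 0.73 for NAC20, 0.51 for FLO2, 0.49 for NF-YB1 and -0.36 for LFL1. Over all loci tested the median of this difference was -0.01 and the median of its absolute value 0.52. The storage protein list moved the same way, with 167581 CPM in seed 1 and 348809 CPM in seed 2. The starch synthesis list moved the other way, with 36727 CPM in seed 1 and 23820 CPM in seed 2, as did the floral markers (1434 and 700 CPM) and the leaf markers (511 and 341 CPM). The part of these lists in the members' difference was not tested. Bin shares also differed between the seed libraries beyond counting error, in 3 of 4 bins of NAC26, 2 of 3 of NAC20, both of NF-YB1, 11 of 24 of FLO2, 1 of 6 of RISBZ1 and 1 of 6 of LFL1, by Wilson intervals that did not overlap. The 2 bins of NF-YB1 mirror each other and are 1 difference. The share of all bins that meet this rule was not computed. Intervals narrow with more counts, so the member counts are a description. The largest difference was in NAC26, whose bin 1 held 63.3% of the counts in seed 1 (95% Wilson interval 60.8% to 65.7%) and 43.6% in seed 2 (41.3% to 45.9%). Bins 3 and 4 held 5.18% and 5.04% in seed 1, against 14.8% and 11.5% in seed 2. Bin 6 of LFL1 held 27.9% in seed 1 and 45.1% in seed 2, and bin 3 of NAC20 held 57.9% and 66.1%. No bin of RPBF or RSR1 had intervals apart, but RSR1 had only 279 and 304 counts in the seed libraries. Over all 97090 bins with 20 or more counts in the seed pair, bin counts differed by a chi-square of 38.2 per degree of freedom. That value takes in differences in the level of whole loci, so it does not measure bin shares.

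**Figure D4:**
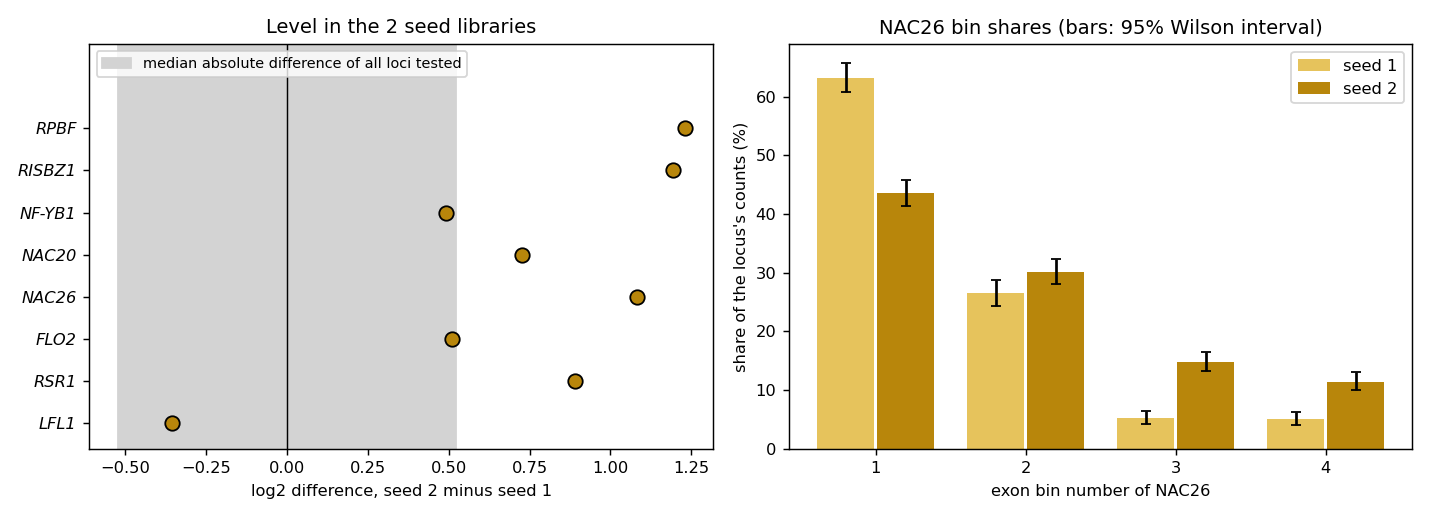
Left, the difference of seed 2 minus seed 1 on the log2(CPM + 0.5) scale for each member, with the median absolute difference of all loci tested, 0.52, as a grey band. Right, the share of NAC26 counts in each of its 4 exon bins in both seed libraries with 95% Wilson intervals; bin 1 falls at 63.3% in seed 1 and 43.6% in seed 2.

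Likeness of pattern was measured as the Euclidean distance over the 7 libraries between log2(CPM + 0.5) values centred per locus, so that 0 means the same changes. Among members, the nearest pair was RPBF and NF-YB1, at 0.54, and NAC20 and NAC26 were nearest to RPBF, at 0.73 and 0.95. RPBF, NF-YB1 and NAC26 had at most 1 count outside seed, so the pseudocount fixes their values there and these distances mainly compare the seed libraries. RISBZ1 was 3.46 from its nearest member, NAC26, and 88 other loci were nearer to it. FLO2 and LFL1 were 4.32 apart, with 6396 other loci nearer to FLO2 and 11005 nearer to LFL1, and RSR1 was 7.21 from its nearest member, FLO2, with 10442 nearer, so these 3 were not alike to any member. Of all other loci tested, Os11g0512600 came nearest to a member, at 0.26 from NAC26, with 95.7 and 232 CPM in seed and no count elsewhere. Os10g0501900 was nearest to RPBF (0.34), NF-YB1 (0.53) and NAC20 (0.61), with 193 and 382 CPM in seed and at most 0.0520 CPM elsewhere. For LFL1 the nearest was Os01g0660900, at 0.74, and for FLO2 it was Os03g0767500, at 0.93. Os03g0767500 had 42.0 and 50.4 CPM in seed, 5.16 and 6.08 CPM in panicle, 62.4 and 64.0 CPM in leaf and 5.55 CPM in root. The tables pair no gene names with these IDs.

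Storage protein and starch synthesis genes are the classes that such regulators are known to act on, and loci of both were counted from lists made by locus ID. Whether any locus of the lists is a target of a member was not tested. All 14 storage protein loci were called higher in seed than in panicle, in leaf and in root, and none of them was called between panicle, leaf and root. Their summed level was 167581 and 348809 CPM in seed, 10.8 and 9.66 CPM in panicle, 4.90 and 6.47 CPM in leaf and 8.66 CPM in root. Of the 27 starch synthesis loci, 17 were called higher and 2 lower in seed than in panicle, 16 higher and 5 lower than in leaf, and 19 higher and none lower than in root. Both the higher and the lower counts moved with the libraries and with the settings. With a 4-fold minimum, the 17 higher against panicle became 14 and the 16 higher against leaf became 14. The 19 higher against root became 15 with only the libraries of the pair and 23 with DESeq2. Leaving out a panicle or leaf library also lowered the higher count against that tissue. For the lower counts, the changes were as follows. The 2 against panicle became 0 without panicle 2, with the largest bin count of a locus or with a 4-fold minimum. They became 1 without panicle 1, leaf 1 or leaf 2 or with only the libraries of the pair, and 3 with RLE factors, DESeq2, no filter on low counts, the replicate block, TMM factors without the 100 most abundant loci, or without seed 1 or root. The 5 against leaf became 3 without leaf 1 and 2 without leaf 2, and lay between 4 and 6 under the other alternatives. Their median log2 fold change was 2.10 for seed over panicle, 2.04 for seed over leaf and 5.78 for seed over root, while over all loci tested the medians were 0.10, -0.08 and 0.09. Outside seed, 4 starch loci were called higher and 6 lower in panicle than in leaf, where the shares of all loci were 8.75% and 21.3%. In panicle against root 14 were higher and none lower, with 10.2% of all loci higher and 18.0% lower, and in leaf against root 13 were higher and none lower, with 10.8% and 7.23% of all loci. Their summed level was 36727 and 23820 CPM in seed, 2439 and 2501 CPM in panicle, 4734 and 3727 CPM in leaf and 605 CPM in root. RSR1 lay lower in seed and panicle than in both leaf and root, whereas the summed starch list lay higher in seed than in leaf and root, and in panicle between leaf and root. Both lists were drawn up with earlier results of these data known and are not independent evidence of direction.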

How the data were processed

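The authors deposited 1 table of whole-number counts per exon bin for each of 7 libraries, not normalized. Per the submitters' processing notes, bcl2fastq 1.8.4, TopHat, TopHat2 2.0.4, Bowtie2, SAMtools 1.2, Cufflinks and HTSeq were used with build IRGSP-1.0. Their roles, the annotation release and any strand setting are not stated by the notes, so reads of overlapping or antisense loci cannot be told apart. The 5 closing rows that name no gene (12.2% to 15.8% of counts) were left out. The files hold IDs only, and member names were paired with IDs by hand. LFL1, NF-YB1 and RSR1 were found as synonyms in the RefSeq gene table, each on the chromosome its locus ID gives. List roles were likewise assigned by hand and rest on no table used here.

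Bins were summed per locus and kept by filterByExpr (minimum count 10, 1 library sufficing). edgeR 4.0.16 in R 4.3.3 used TMM, estimateDisp, glmQLFit and glmQLFTest on all 7 libraries with 4 tissue means. The 3 residual degrees of freedom come from seed, panicle and leaf, and root is assumed to vary like them. A standard error is the size of a log2 fold change divided by the root of its F statistic. Exon usage used diffSpliceDGE (117658 bins of 18512 loci). Adjustment ran over all loci or bins. Where 1 to 3 counts were seen, the ratio has an exact binomial interval; Wilson intervals and floors cover counting error only. Alternatives included DESeq2 1.42.0 and limma 3.58.1. All 8 members were named; for likeness, the 4 nearest other loci at 1 per member were named. A minimum of 200 counts per tissue for comparing bin shares was added after the data were seen. Members and lists were chosen with earlier results of these data known.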

Additional observations from a re-analysis of the deposited data

How the results depend on the processing

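The count of members called and the count highest in seed were recomputed under RLE factors, DESeq2, the largest bin count, no filter on low counts, only the libraries of the pair, a replicate block, TMM factors without the 100 most abundant loci, other fold minimums and with each library left out. Only for leaf over root did the count move by over 1.5 times, from 2 members to 1 without leaf 1 and to 1 without leaf 2. The count highest in seed was 6, and 5 at the lowest. Exon usage was recomputed under only some of these settings, and also with voom and diffSplice. No usage call appeared in those fits, with a smallest adjusted p of 0.95. Signs changed only where no call was made. FLO2 in seed over leaf was 0.027 with RLE factors and 0.027 with DESeq2, 0.079 with the largest bin count, 0.084 without the 100 most abundant loci and 0.12 with only the pair's libraries. With a library left out it ran from -0.33 to 0.18. NAC20 in panicle over leaf was 1.24, and ran from -0.23 to 2.22 without panicle 2 and panicle 1. LFL1 in panicle over leaf was 0.18, and ran from -0.28 to 0.97 without leaf 1 and leaf 2.

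Replicate numbers are shared by seed, panicle and leaf, but are not known to mark a shared plant or day, so they were not taken as pairs. Deviations of same-numbered libraries correlated across loci at 0.04 for seed and panicle, 0.22 for seed and leaf and 0.14 for panicle and leaf. Whether same-numbered libraries share a plant or day was not tested. With the replicate block, RSR1 in seed over panicle was called, at 1.42 (adjusted p = 0.0302), LFL1 in panicle over root was not (3.13, adjusted p = 0.0691), and the members called in seed over panicle numbered 8. Depth limits NAC20 and LFL1 outside seed and RISBZ1 in panicle and leaf, where single libraries had 0 to 42 counts.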
